A study of Mus musculus with 4 samples.

Results

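The genes described here are a set linked to growth arrest and to the p53 pathway, measured in the liver of 9-month-old male mice of 2 reciprocal crosses. The set names 9 genes, namely Gadd45a, Gadd45b, Gadd45g, Btg2, Cdkn1a, Mdm2, Ccng1, Trp53inp1 and Bax. Its members were taken as every probe set whose single gene symbol in the platform annotation is one of these names. This gave 17 probe sets for 8 of the 9 genes, out of 18193 genes so named on the array. Bax was not analysed here. For each gene the brightest probe set over the 4 arrays stood for the gene. All 8 genes had a mean log2 signal above the median of all probe sets, equal to a signal of 60.9, a filter on dim genes that left 11749 genes in the test.

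The 2 AB6F1 males came from AJ mothers and B6 fathers, and the 2 B6AF1 males from the opposite mating, with B6 mothers and AJ fathers. All 4 mice were raised on chow in an SPF facility without any intervention, and RNA came from whole liver slices. Reciprocal F1 males share their autosomes and differ in the parent that gave each strain's alleles, and so in the X and Y chromosomes, the mitochondria and the side that is imprinted. The title of the series names nonalcoholic fatty liver disease, and the question here is whether these stress-response genes differed between the 2 directions of the cross.

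The p53 protein is a transcription factor that is held at a low level by the ubiquitin ligase Mdm2 and accumulates after DNA damage or other stress. Its targets stop the cell cycle (Cdkn1a, also called p21), restrain p53 itself (Mdm2, Ccng1), or promote cell death and autophagy (Bax, Trp53inp1). The Gadd45 proteins are small acidic stress sensors that bind the kinase Map3k4, and they are also induced without p53, by cytokines, growth factors and other stresses. Btg2 is an antiproliferative adaptor that recruits the CCR4-NOT deadenylase to messenger RNA, and it responds both to p53 and, as an immediate early gene, to growth signals.

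The RefSeq promoter table of assembly GRCm38.p6 held 8 windows for 7 of the 8 measured genes, of which the 250 bases before the annotated start were searched on both strands. The windows of 4 genes are shown, the 3 with the smallest p in the comparison below and Cdkn1a, the best-known p53 target among them. The sequences are those of the reference strain, so alleles from AJ may differ from them. Capitals mark the cAMP response element TGACGTCA in Btg2, the octamer ATTTGCAT (or its reverse complement) in Gadd45a and Gadd45g, and p53 decamers in Cdkn1a. The Cdkn1a window belongs to the upstream one of 2 starts.
Btg2 promoter, chr1:134079156-134079405, minus strand: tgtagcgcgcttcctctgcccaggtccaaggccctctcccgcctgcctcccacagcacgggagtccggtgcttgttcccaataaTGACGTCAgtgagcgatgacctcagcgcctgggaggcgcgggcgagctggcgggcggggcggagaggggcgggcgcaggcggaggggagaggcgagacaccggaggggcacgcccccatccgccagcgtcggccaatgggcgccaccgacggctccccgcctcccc
Gadd45a promoter, chr6:67037408-67037657, minus strand: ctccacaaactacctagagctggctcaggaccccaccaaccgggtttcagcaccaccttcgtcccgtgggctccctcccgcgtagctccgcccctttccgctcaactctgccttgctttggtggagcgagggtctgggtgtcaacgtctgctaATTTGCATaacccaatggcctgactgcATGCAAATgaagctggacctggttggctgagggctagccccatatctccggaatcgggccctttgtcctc
Gadd45g promoter, chr13:51846425-51846674, plus strand: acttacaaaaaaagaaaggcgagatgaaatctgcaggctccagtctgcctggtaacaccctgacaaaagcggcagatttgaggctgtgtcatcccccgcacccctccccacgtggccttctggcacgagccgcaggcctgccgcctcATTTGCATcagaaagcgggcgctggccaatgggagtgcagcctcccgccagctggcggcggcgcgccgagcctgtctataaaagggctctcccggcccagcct
Cdkn1a promoter, chr17:29090729-29090978, plus strand: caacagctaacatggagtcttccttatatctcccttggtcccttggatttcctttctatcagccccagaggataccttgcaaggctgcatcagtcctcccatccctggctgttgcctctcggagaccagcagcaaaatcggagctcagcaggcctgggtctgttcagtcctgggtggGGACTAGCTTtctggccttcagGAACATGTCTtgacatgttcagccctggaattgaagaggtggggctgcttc

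Counted from the start, the element in Btg2 lay at -166 to -159. The same 8 letters were found in 1.55% of all 32851 windows in the table and in no other window of these genes. The octamer, which POU-domain factors are known to bind, lay at -97 to -90 and again at -70 to -63 in Gadd45a, and at -103 to -96 in Gadd45g, against 1.6% of all windows with at least 1 copy. The decamer that p53 recognises was found in 4 of the 8 windows, in Gadd45a, Mdm2, Ccng1 and the upstream window of Cdkn1a, against 7.13% of all windows. A pair of such decamers no more than 13 bases apart was found only in the upstream Cdkn1a window, against 0.0639% of all windows. Only exact matches were marked. In that window GAACATGTCT is followed directly by tgacatgttc, which falls outside the searched pattern only at its first base. The E-box CACGTG and the TATA box TATAAA were each present in 2 windows, those of Gadd45b and Gadd45g, against 6.02% and 12.4% of all windows. The AP-1 letters TGANTCA, the STAT letters TTCNNNGAA, the CArG box and the kappaB site were found in 0 of the 8 windows, against 6.75%, 7.02%, 1.47% and 7.25% of all windows. The decamers of the pair are also counted singly. The motifs were chosen with the results known, and a match describes letters rather than binding.

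Values are MAS5 signals, which combine the perfect-match and mismatch probes of a probe set into 1 linear intensity. Each array was scaled to a trimmed mean signal of 500, and the 6 pairs of arrays had Pearson correlations between 0.961 and 0.975 in log2 signal over the genes tested. The number of arrays limits the precision. With 2 mice in each cross, the smallest two-sided p of an exact permutation test on 1 gene is 0.333. The labels call the mice of each cross biological replicates. Their sample identifiers run in separate blocks for the crosses, but identifiers do not state how the samples were handled. An effect of handling could therefore not be checked or told apart from the cross. Because whole liver was used, fewer cells of a type and less RNA per cell cannot be told apart either. Differences are on the log2 scale of the linear signal, as AB6F1 minus B6AF1, with limma's standard error (SE) and a two-sided p with Benjamini-Hochberg adjustment over all 11749 genes.

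By their brightest probe sets, the 3 Gadd45 genes and Btg2 had higher signals in both AB6F1 livers than in either B6AF1 liver. Cdkn1a, Ccng1 and Trp53inp1 overlapped between the crosses, and Mdm2 had lower signals in both AB6F1 livers. Past the filter, another probe set of Mdm2 overlapped, and another of Trp53inp1 was higher in both AB6F1 livers. No member passed limma over all genes at an adjusted p of 0.05, a threshold that 0.213% of all genes passed, 0.136% as higher and 0.0766% as lower. At an unadjusted limma p under 0.05, 3 of the 8 members were higher (Btg2, Gadd45g and Gadd45a) and 0 were lower, against 5.84% and 3.88% of all genes tested. For 4 members both AB6F1 arrays lay above both B6AF1 arrays, and for 1 they lay below, against 22.5% and 18.7% of all genes. The log2 difference was above 0 for 6 of the 8 members, against 53.5% of all genes, with a median of 0.81 over the members and 0.024 over all genes tested.

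**Figure D1:**
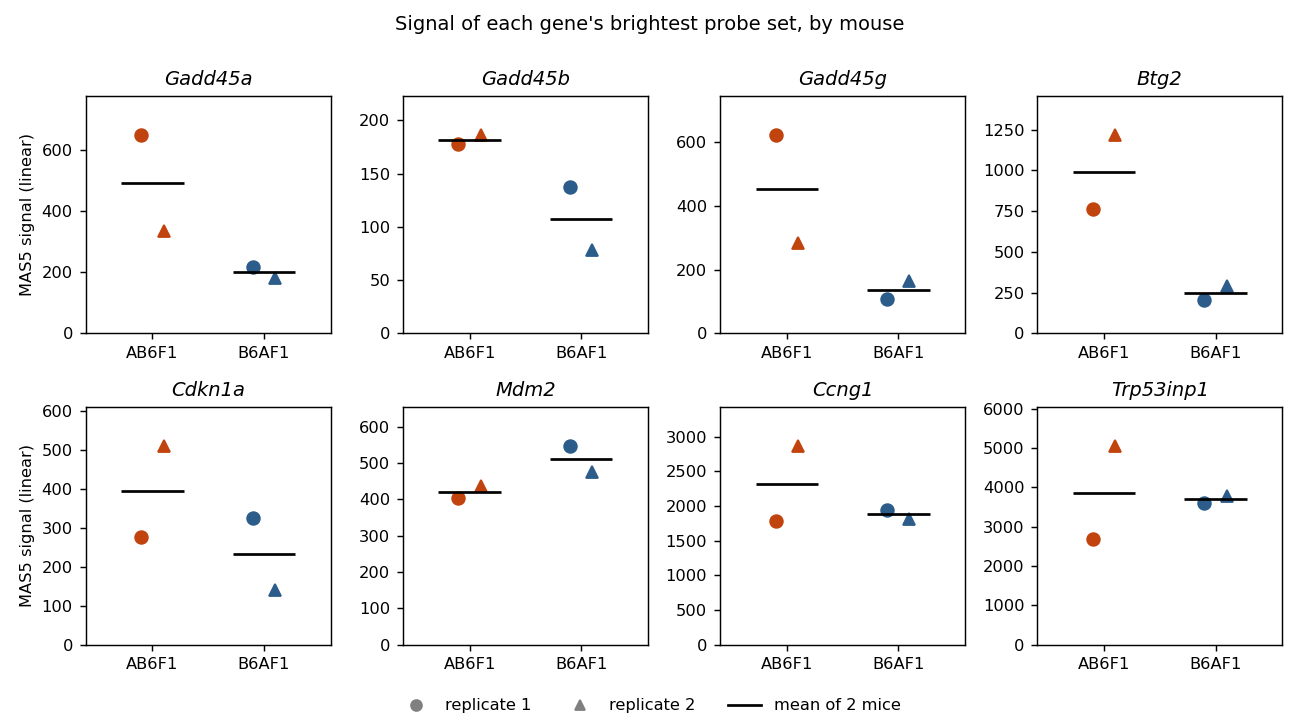
MAS5 signal on a linear axis from 0 (each panel has its own scale) of the brightest probe set of each gene, with 1 point for each mouse and a bar at the mean of the 2 mice of a cross. Both AB6F1 points lie above both B6AF1 points for Gadd45a, Gadd45b, Gadd45g and Btg2 and below them for Mdm2.

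Btg2 showed the largest difference of the set. Its signal was 763.4 and 1216.1 in the AB6F1 livers, against 201.5 and 289.7 in the B6AF1 livers. The lower AB6F1 mouse was 2.64-fold above the higher B6AF1 mouse, and mice of the same cross differed by 1.59-fold in AB6F1 and 1.44-fold in B6AF1. The crosses differed by 3.99-fold, or 2.0 ± 0.28 (log2, SE), with a 95% interval of 1.33 to 2.67. The limma adjusted p of 0.0636 missed the threshold, and 0.315% of the genes tested had a smaller p. A second Btg2 probe set gave 414.3 and 797.5 in AB6F1, against 129.9 and 158.9 in B6AF1, or a log2 difference of 2.0, with a limma adjusted p of 0.11 when all probe sets were tested separately. Both probe sets thus ordered the 4 mice alike.

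The call on Btg2 changed with the mouse left out and under 1 of 3 other scalings. It passed limma without AB6F1 replicate 1, at 2.33 ± 0.28 (adjusted p = 0.00671), and without AB6F1 replicate 2, at 1.66 ± 0.29 (adjusted p = 0.0285). Among all genes, 0.4% and 1.21% passed as higher in those fits. Without B6AF1 replicate 1 it was at 1.73 ± 0.33 (adjusted p = 0.452) and without B6AF1 replicate 2 at 2.26 ± 0.34 (adjusted p = 0.412). Btg2 passed after each array was centred on its median, at 1.86 ± 0.29 (limma adjusted p = 0.0358). This scaling moved the median of all genes to -0.11, and 0.238% of genes passed under it as higher. Btg2 missed the threshold after quantile normalization, at 1.94 ± 0.28 (limma adjusted p = 0.0775), and after cyclic loess, at 1.94 ± 0.28 (limma adjusted p = 0.0645). It missed by more without limma's intensity trend in the variance, at 2.0 ± 0.33 (limma adjusted p = 0.372), a setting in which 0 genes passed. With a threshold of 0.1, Btg2 passed as reported, as did 0.23% of genes on the higher side.

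Gadd45g, a cytokine-responsive member of the family, had signals of 621.2 and 283.6 in AB6F1, against 106.1 and 165.5 in B6AF1. The AB6F1 mice were unlike each other, at 2.19-fold, yet the lower one was 1.71-fold above the higher B6AF1 mouse. The crosses differed by 3.17-fold, or 1.66 ± 0.42 (log2, SE), with a 95% interval of 0.68 to 2.65 and a limma adjusted p of 0.292.

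Gadd45a, the founding member of the family and a known p53 target, had signals of 649.8 and 335.1 in AB6F1, against 217.5 and 182.8 in B6AF1. AB6F1 replicate 1 was 1.94-fold above replicate 2, which was 1.54-fold above the higher B6AF1 mouse. The crosses differed by 2.34-fold, or 1.23 ± 0.33 (log2, SE), with a 95% interval of 0.44 to 2.01 and a limma adjusted p of 0.338. Gadd45a and Gadd45g were each read by 1 probe set. The size of both differences depended on the AB6F1 mouse left out. Without AB6F1 replicate 2, Gadd45a was at 1.70 ± 0.28 and Gadd45g at 2.23 ± 0.37. Without AB6F1 replicate 1 they were at 0.75 ± 0.31 and 1.10 ± 0.42.

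Gadd45b, a target of NF-kappaB and TGF-beta signalling that restrains JNK signalling, was dim. Its signal was 177.4 and 186 in AB6F1, against 137.2 and 77.9 in B6AF1. The crosses did not overlap, although the lower AB6F1 mouse was no more than 1.29-fold above the higher B6AF1 mouse. Gadd45b differed by 0.81 ± 0.39 (log2, SE; limma adjusted p = 0.55), with a 95% interval of -0.10 to 1.72 that includes 0. Leaving out B6AF1 replicate 2 gave 0.40, and leaving out B6AF1 replicate 1 gave 1.22. The probe set behind these values has the suffix _s_at and may bind more than 1 transcript. Of the 2 other Gadd45b probe sets, the brighter gave 137.5 and 156.3 in AB6F1, against 130.1 and 79.3 in B6AF1, a log2 difference of 0.53. The dimmer lay under the filter signal of 60.9 on 3 of the 4 arrays and was unlike between the AB6F1 mice, at 23 and 175.7.

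**Figure D2:**
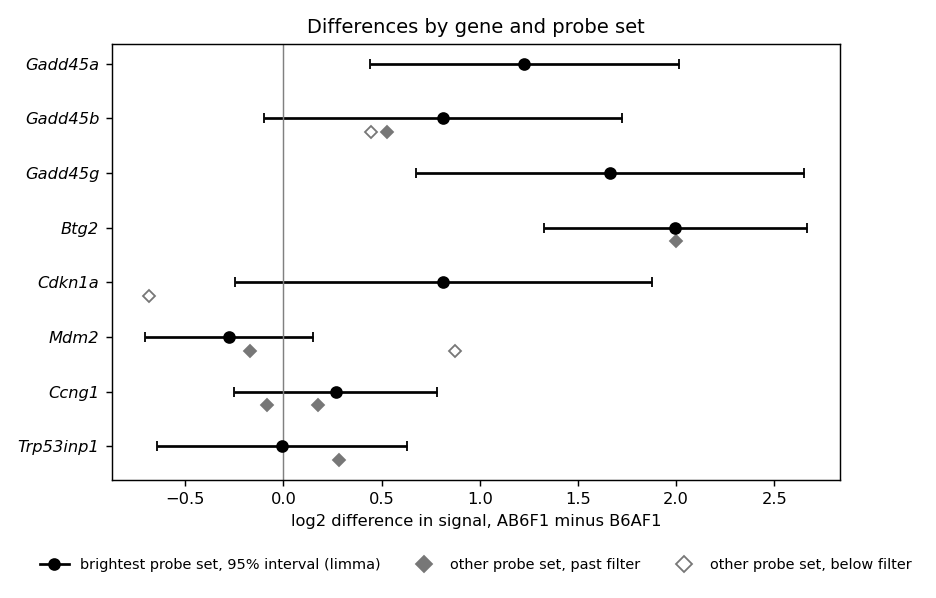
Log2 difference in signal, AB6F1 minus B6AF1, for each gene's brightest probe set (black circles with limma's 95% interval) and for its other probe sets (grey diamonds, open where the probe set is under the filter). The intervals of Gadd45a, Gadd45g and Btg2 lie above 0, and those of Gadd45b, Cdkn1a, Mdm2, Ccng1 and Trp53inp1 include 0.

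Among the p53 targets, Cdkn1a, the inhibitor of cyclin-dependent kinases, had signals of 277.2 and 508.4 in AB6F1, against 323.5 and 141 in B6AF1. The crosses overlapped, with 1.83-fold between the AB6F1 mice and 2.29-fold between the B6AF1 mice. Cdkn1a differed by 0.81 ± 0.45 (log2, SE; limma adjusted p = 0.615), with a wide 95% interval of -0.25 to 1.88. Its size depended on single mice, at 0.21 without B6AF1 replicate 2, 0.38 without AB6F1 replicate 2, 1.25 without AB6F1 replicate 1 and 1.41 without B6AF1 replicate 1. The other Cdkn1a probe set was under the filter, at 6.7 and 61.3 in AB6F1 against 76.7 and 13.8 in B6AF1, with unlike mice in each cross.

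Mdm2, the ligase that degrades p53 and is itself induced by it, had signals of 403.7 and 437.2 in AB6F1, against 545.8 and 475.2 in B6AF1. Both AB6F1 mice were below both B6AF1 mice, by 1.09-fold at the closest. Mdm2 differed by -0.28 ± 0.18 (log2, SE; limma adjusted p = 0.66), with a 95% interval of -0.70 to 0.15. The second probe set overlapped between the crosses, at 421.8 and 345.7 in AB6F1 against 381.2 and 485.1 in B6AF1, a log2 difference of -0.17. The remaining one gave 78.8 and 23.2 in AB6F1 against 27.3 and 19.9 in B6AF1, under the filter on 3 of 4 arrays.

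Ccng1, cyclin G1, a p53 target that guides phosphatase PP2A to Mdm2, had signals of 1785.5 and 2856.9 in AB6F1, against 1941.5 and 1816.5 in B6AF1. The B6AF1 mice lay within the AB6F1 range. The difference was 0.27 ± 0.22 (log2, SE; limma adjusted p = 0.735), with a 95% interval of -0.25 to 0.78, and the other probe sets gave -0.084 and 0.18. Without AB6F1 replicate 2 the sign turned, to -0.073 ± 0.14.

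Trp53inp1, which acts in p53-dependent cell death and in autophagy, had signals of 2683.4 and 5045.2 in AB6F1, against 3608.9 and 3787.2 in B6AF1. The AB6F1 mice lay on either side of the B6AF1 mice, which differed by 1.05-fold. The crosses were at -0.0069 ± 0.27 (log2 difference, SE; limma adjusted p = 0.996), with a 95% interval of -0.64 to 0.63. Leaving out AB6F1 replicate 1 gave 0.45, and leaving out AB6F1 replicate 2 gave -0.46. The sign also turned under quantile normalization, under cyclic loess and without B6AF1 replicate 2, to 0.0066, 0.028 and 0.028. The other probe set gave 417.7 and 469.4 in AB6F1, against 397.5 and 331.9 in B6AF1, a log2 difference of 0.29 without overlap.

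The AB6F1 mice differed from each other in opposite directions across the set. Gadd45a and Gadd45g were 1.94-fold and 2.19-fold higher in AB6F1 replicate 1. Btg2, Cdkn1a, Ccng1 and Trp53inp1 were 1.59-fold to 1.88-fold higher in AB6F1 replicate 2. Gadd45b and Mdm2 differed by 1.05-fold and 1.08-fold between these mice. The B6AF1 mice were closer to each other for Gadd45a, Gadd45g, Btg2, Ccng1 and Trp53inp1, at 1.05-fold to 1.56-fold, and further apart for Cdkn1a, Gadd45b and Mdm2, at 2.29-fold, 1.76-fold and 1.15-fold.

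**Figure D3:**
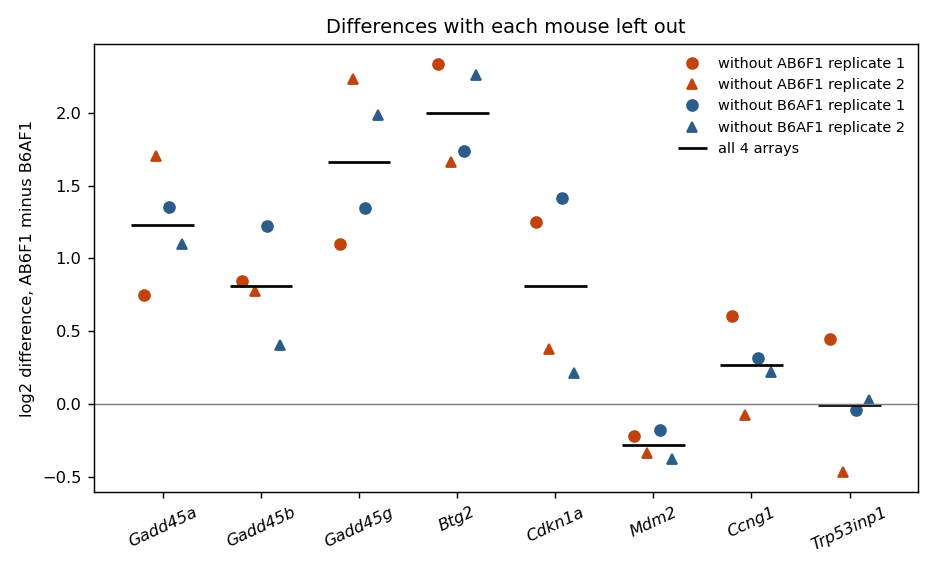
Log2 difference, AB6F1 minus B6AF1, of each gene over all 4 arrays (black bars) and with each mouse left out in turn (circles without a replicate 1, triangles without a replicate 2, orange for AB6F1 and blue for B6AF1). Btg2 stayed between 1.66 and 2.33, while Cdkn1a ran from 0.21 to 1.41 and Trp53inp1 from -0.46 to 0.45.

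Among the tested genes, the 3 whose values over the 4 arrays, centred on each gene's mean, lay closest to those of Btg2 were Col5a2, Slc22a27 and Socs3, at Euclidean distances of 0.17, 0.35 and 0.45 on the log2 scale. Col5a2, a collagen chain, had signals of 167.7 and 263.8 in AB6F1, against 49.5 and 61.1 in B6AF1. Socs3, a cytokine-induced feedback inhibitor, had 962.2 and 1161 in AB6F1, against 296.2 and 358.7 in B6AF1. With 4 arrays such likeness is a description only. Within the set, the closest patterns were those of Ccng1 and Trp53inp1, at a distance of 0.34.

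Other genes of the pathway were set beside the members, from lists chosen with earlier results known. Of 24 other p53 targets, 18 were tested and 0 passed limma in either direction. At an unadjusted limma p under 0.05, 5 were higher and 0 lower, against 5.84% and 3.88% of all genes. The median log2 difference was -0.0075, against 0.024 over all genes. The 5 were Aen, an exonuclease, at 0.52 ± 0.20 (SE), Apaf1, the apoptosome scaffold, at 1.25 ± 0.48, Phlda3, an Akt inhibitor, at 0.81 ± 0.32, Zmat3, an RNA-binding protein, at 0.61 ± 0.25, and the kinase Plk3, at 0.61, all with limma adjusted p between 0.471 and 0.501. Plk3 lies outside the naming rule and was chosen after its values were seen. Apaf1 was dim, at 111.9 and 135.4 in AB6F1 against 44.1 and 60.6 in B6AF1. Both B6AF1 signals were under the filter signal of 60.9, so Apaf1 entered the test only through AB6F1. The remaining 13 tested targets had differences between -0.33 and 0.31.

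Of 10 regulators of p53, 7 were tested, 0 passed limma and 0 had an unadjusted p under 0.05, with a median of 0.056. Usp7, a deubiquitinase of p53 and Mdm2, was at -0.20 ± 0.14 (SE), the kinases Chek2 and Atm at -0.49 ± 0.39 and -0.15 ± 0.19, and the phosphatase Ppm1d at 0.23 ± 0.34. Mdm4, the Mdm2 relative that blocks p53 activity, had signals of 166.6 and 300.9 in AB6F1, against 168 and 261.4 in B6AF1, a log2 difference of 0.095. Its other probe sets gave -0.034, 0.086 and, under the filter, 0.46. The level of Trp53 itself was not analysed here.

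Of 12 partners of the Gadd45 proteins, 9 were tested, 3 higher and 6 lower, with a median of -0.023. Among them 0 passed limma and 0 had an unadjusted p under 0.05. The p38 pathway kinases Map2k6 and Mapk14 were at -0.53 ± 0.28 and -0.18 ± 0.13 (log2, SE), the JNK gene Mapk8 at -0.24 ± 0.19, and Cdk1 at 1.05 ± 0.60. Of 11 relatives of Btg2 and deadenylation genes, 9 were tested, 2 higher and 7 lower, with a median of -0.054. None of the 9 passed limma. At an unadjusted limma p under 0.05, where 5.84% of all genes were higher and 3.88% lower, the list had 1 higher and 1 lower. These were Tob2, a BTG-family adaptor, at 0.54 ± 0.21, and Cnot7, a catalytic deadenylase, at -0.38 ± 0.13. Btg1, a close relative of Btg2, was at -0.22 ± 0.13, with 6476.1 and 7875.8 in AB6F1 against 8068.9 and 8587.6 in B6AF1.

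Cyclins, cyclin-dependent kinases and their inhibitors had 12 of 14 genes tested, 5 higher and 7 lower, with a median of -0.16. None of these 12 passed limma. At an unadjusted limma p under 0.05 there were 1 higher and 2 lower, against 5.84% and 3.88% of all genes. Ccnd1, the G1 cyclin, was at 0.72 ± 0.15 (log2, SE), with 959.6 and 884.1 in AB6F1 against 547.2 and 568 in B6AF1 (limma adjusted p = 0.208). Ccnd3 was at -0.45 ± 0.14 and Ccng2, the relative of Ccng1, at -0.48 ± 0.18. In the BCL2 family and caspases, 13 of 14 genes were tested, with a median of 0.060 and 0 past limma. At an unadjusted limma p under 0.05, against the same shares of all genes, 0 were higher and 1 was lower. That one was Bmf, a death-promoting BH3-only protein, at -1.03 ± 0.26, with 147.6 and 157.7 in AB6F1 against 278 and 350.9 in B6AF1 (limma adjusted p = 0.285). Bcl2l11, another BH3-only protein, was at 0.63 ± 0.28.

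Immediate early genes, the class that Btg2 also belongs to, were higher on balance. Of 14 listed, 13 were tested, and the median was 1.09. The log2 difference was above 0 for 11 of them, against 53.5% of all genes, and below 0 for 2. At an unadjusted limma p under 0.05, 7 were higher and 0 lower, against 5.84% and 3.88% of all genes. Among the 13, 0 passed limma with adjustment over all genes. Fos was at 2.76 ± 0.42 (SE; limma adjusted p = 0.0845), Egr1 at 2.07 ± 0.56, Jun at 1.41 ± 0.32 and Junb at 1.09 ± 0.29. The signal of Fos was 307.8 and 589.1 in AB6F1, against 49.9 and 79.7 in B6AF1. The lower of these B6AF1 signals was under the filter signal of 60.9. Ier3, another of the 7, had 84.7 and 163.3 in AB6F1, against 51.3 and 35 in B6AF1. Both its B6AF1 signals were under the filter signal, so Ier3 entered the test only through AB6F1.

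**Figure D4:**
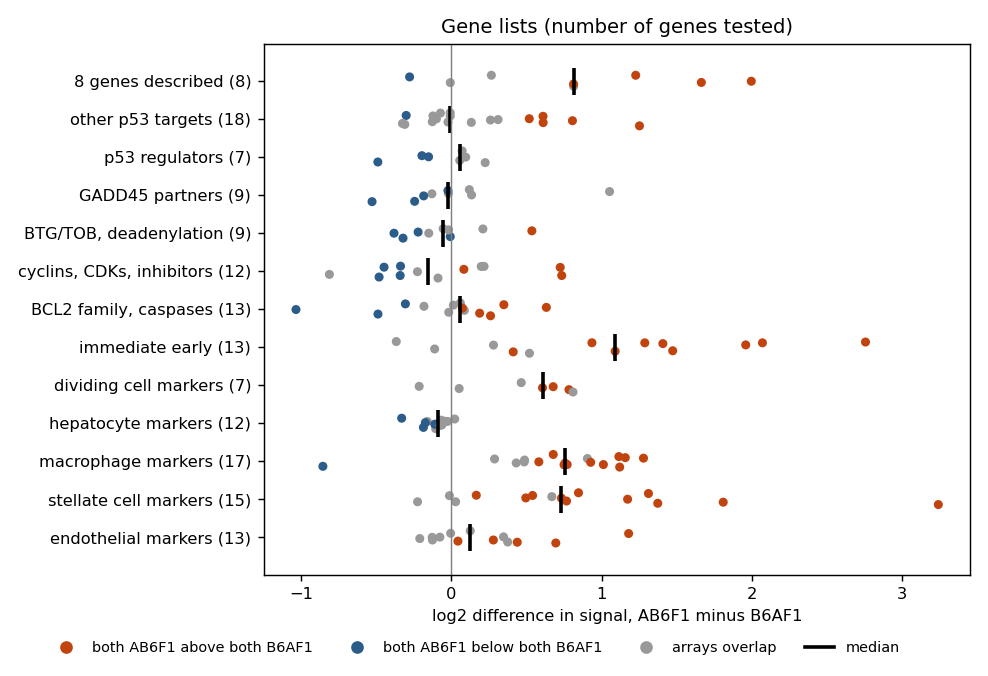
Log2 difference in signal, AB6F1 minus B6AF1, of every tested gene in the set and in the lists beside it, with a black bar at each list's median. Points are orange where both AB6F1 arrays lie above both B6AF1 arrays, blue where both lie below and grey where they overlap. The medians are -0.0075 for other p53 targets, 1.09 for immediate early genes and 0.76 for macrophage markers.

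Whole liver holds several cell types, and their markers were measured on the same arrays. Macrophage markers were higher in AB6F1 for 16 of 17 tested genes of 20 listed, against 53.5% of all genes, with a median of 0.76. Their summed signals were 23341 and 14484 in AB6F1, against 9973 and 13202 in B6AF1. At an unadjusted limma p under 0.05, 10 were higher and 1 lower, against 5.84% and 3.88% of all genes. The lower one, Cd163, had 194.9 and 219.3 in AB6F1 against 359.1 and 389.2 in B6AF1, or -0.85 ± 0.22 (log2, SE). For Clec4f, Vsig4, Cd5l, Cd14 and Fcer1g the arrays overlapped between the crosses. Marco, Timd4 and Itgam were under the filter. Stellate cell markers were higher for 13 of 15 genes, with a median of 0.73 and summed signals of 19169 and 24313 in AB6F1, against 15428 and 14500 in B6AF1. At an unadjusted limma p under 0.05, 8 of the stellate cell markers were higher and 0 lower. With adjustment 2 of them passed limma as higher, against 0.136% of all genes. They were Col3a1 at 1.81 ± 0.16 (log2, SE, limma adjusted p = 0.00931) and Col1a2 at 1.37 ± 0.17 (limma adjusted p = 0.0402). Hepatocyte markers, which define the tissue, were bright on every array, with a median of -0.089 over 12 genes. Their summed signals were 444714 and 397858 in AB6F1, against 423578 and 488038 in B6AF1. Of the 12, 1 was higher and 11 lower, against 53.5% of all genes higher. At an unadjusted limma p under 0.05, 0 were higher and 1 was lower, against 5.84% and 3.88% of all genes. The lower one was Cps1, at -0.33 ± 0.12 (log2, SE). Endothelial markers had a median of 0.13 over 13 tested genes of 14 listed. At an unadjusted limma p under 0.05, 2 of them were higher (Lyve1 and Cdh5) and 0 lower, against the same shares of all genes. Dividing-cell markers had a median of 0.61 over 7 of 14 listed, and cholangiocyte markers 0.42 over 3 of 10. In these lists 0 genes had an unadjusted limma p under 0.05. Lymphocyte and neutrophil markers had a median of 0.023 over 8 of 16 listed. The last list was split, with 4 genes higher, 4 lower and 0 past limma (2 higher and 0 lower at an unadjusted p under 0.05). The neutrophil genes S100a8 and S100a9 were at 2.68 ± 0.86 and 1.90 ± 0.70 (log2, SE; limma adjusted p of 0.408 and 0.463), the T cell gene Cd8a at -1.04 ± 0.69 and the B cell gene Cd79b at 0.54 ± 0.57. The signal of S100a8 was 601.9 and 120.7 in AB6F1, against 76.8 and 23 in B6AF1. S100a9 had 404.8 and 97.9 in AB6F1, against 69.8 and 40.6 in B6AF1. In B6AF1 the mean log2 signal of both genes was under the filter, so they entered the test only through AB6F1. The other neutrophil genes tested, Mpo and Ngp, were at -0.28 and -0.11; they lie outside the naming rule and were chosen after their values were seen. The part of these cell types in the differences of the Gadd45 genes and Btg2 was not tested.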

How the data were processed

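RNA from whole liver slices of 4 mice was hybridised as biotin-labelled cRNA to Affymetrix arrays, per the labels' protocols. The deposited values are the linear intensity of each probe set, a MAS5 signal per the submitters' processing notes, with no version named there. From the values, each array was scaled to a mean of 500 with the lowest and highest 2% of probe sets dropped, which hides any change common to all transcripts. MAS5 is noisy for dim probe sets, and no detection calls were used.

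Of 45101 probe sets, 34945 had 1 gene symbol in the platform annotation, 932 several and 9160 none; 64 others were controls. Symbols were updated for 34741 probe sets through gene identifiers and RefSeq (GRCm38.p6). The filter removed genes whose mean log2 signal was under the median of probe sets, equal to 60.9 on the linear scale. The mean was over all 4 arrays, so a gene dim in 1 cross could enter the test through the other. Log2 signal without a pseudocount was tested with limma 3.58.1 in R 4.3.3 (lmFit, eBayes with an intensity trend) over all 4 arrays, with p-values adjusted by Benjamini-Hochberg and called under 0.05. The fit was tested on simulated data.

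Members and lists were chosen with earlier results of these data known. Most genes named from a list are among those with its 4 smallest p, though not all such genes are named. Trp53, Mdm4 and Alb were named in any case, and Alb was at -0.16 ± 0.13 (log2, SE). Others, such as Ier3 and the macrophage markers whose arrays overlapped, were named after their values were seen. Alternatives were other normalizations, 16 added to the signal, other filters and probe sets, other variance moderation, a threshold of 0.1, each mouse left out, and the replicate number as a block. In fits without a mouse the lone sample is assumed to vary like the other cross. P-values measure the spread between these mice only.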

Additional observations from a re-analysis of the deposited data

How the results depend on the processing

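Over all genes, 25 passed limma, 16 higher and 9 lower. This count was 50 after median centring (28 higher), 46 at a threshold of 0.1 and 0 without the variance trend (1044 at an unadjusted p under 0.05). It ran from 1 to 242 with each mouse left out, 242 being without AB6F1 replicate 2 and 1 without B6AF1 replicate 1 or without B6AF1 replicate 2. Of the 8 members, 0 passed, against 1, Btg2, after median centring and at a threshold of 0.1, and 0 to 3 with a mouse left out, the 3 being Btg2, Gadd45a and Gadd45g without AB6F1 replicate 2. Deviations of same-numbered mice correlated at -0.027 across genes. This shows no large shift shared by replicate number, but it cannot settle whether same-numbered mice were handled together. With the replicate number as a block, 62 genes and 1 member passed, Btg2 with a limma adjusted p of 0.00305.

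Of 122 alternative values of single members, 109 kept direction and side of the threshold, 6 kept direction and came past it, and 7 changed sign. The sign changes were those of Ccng1 (-0.084 on another probe set, and from -0.073 to 0.605 with a mouse left out) and Trp53inp1 (0.0066 after quantile normalization, 0.028 after cyclic loess, 0.29 on another probe set, and from -0.46 to 0.45 with a mouse left out). Gadd45a, Gadd45b, Gadd45g, Btg2 and Cdkn1a were higher, and Mdm2 lower, under every alternative that tested them. For several alternatives this was fixed in advance. Changes of filter, variance moderation or block left the difference of a probe set as it was. Leaving out a mouse cannot turn the sign where the arrays do not overlap. The count of 109 includes such values. The filter at the 75th percentile left 4 members. The causes were not tested. Gadd45b, the other probe set of Cdkn1a and the dimmest of Mdm2 are limited by low signal.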
